A study of Mus musculus with 37 samples.

Results

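Collagen chain genes encode the subunits of the collagens, and 44 of them were found among the 19938 genes measured in mouse colon. They were the transcript clusters with exactly 1 gene symbol that consists of Col, a number, the letter a and a number, with the brightest cluster kept where a symbol had several, as Col6a5 and Col6a6 did. The chains were divided into 11 fibrillar chains, 8 basement membrane chains, 9 FACIT chains (fibril-associated collagens with interrupted triple helices) and 16 others. Colon RNA of 37 mice, 1 array per animal, came from C57BL/6J wild types (WT) and B6.129S4-Timp1tm1Pds/J knockouts (KO), which carry a targeted allele of Timp1, an inhibitor of matrix metalloproteinases. Mice given dextran sodium sulphate (DSS) by mouth, a polysaccharide that injures the colonic epithelium, were compared with controls, in acute and in chronic colitis. The acute groups were 3 WT controls, 5 WT mice on DSS, 3 KO controls and 6 KO mice on DSS, and each of the 4 chronic groups held 5 mice. All 8 groups were snap-frozen colon, and the labels used here give no age, DSS dose or duration.

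Collagen chains wind around each other into a triple helix, and each class builds a different part of the matrix. Fibrillar collagens make the ropes of the lamina propria and submucosa, basement membrane collagens make the sheets under epithelium, endothelium and muscle, FACIT chains sit on the surface of fibrils, and type VI forms beaded microfilaments around cells. In colon most collagen is made by fibroblasts, with smooth muscle and endothelium adding basement membrane chains, and injury is known to raise matrix synthesis while metalloproteinases cleave what is laid down.

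Every level below is a log2 signal, and every difference is on that scale, ± its standard error (SE) from 1 linear model of all genes (limma), and a gene was called higher or lower at an adjusted p under 0.05. The tissue label was borne out by the colon genes Car1, Muc2, Slc26a3 and Cdx2, whose signals lay between 7.79 and 14.31 over all arrays. Array medians ran from 7.668 to 7.764. Timp1 stood at 10.75 ± 1.04 (SD, n = 5) in WT acute DSS and at 7.61 ± 0.57 (SD, n = 6) in KO acute DSS, while the chronic controls of both genotypes lay at 7.13 ± 0.12 and 7.14 ± 0.29 (SD, n = 5 each). The acute controls lay at 7.63 ± 0.12 in WT and 7.01 ± 0.10 in KO (SD, n = 3 each). Between KO and WT Timp1 differed by -3.14 under acute DSS (adjusted p = 1.34e-07) and by -1.38 under chronic DSS (adjusted p = 0.0255). In acute controls it differed by -0.62 without overlap but was not called (adjusted p = 0.608), and in chronic controls by 0.01 (adjusted p = 0.996). Where its probes lie relative to the targeted stretch was not analysed here. Xist was at 5.81 and 5.82 on 2 arrays that also carried Y-linked signal, KO acute control replicate 2 and KO acute DSS replicate 4, and at 11.76 or more on the other 35. Animal numbers in the titles form 4 series that are partly confounded with group. Series 1 holds all WT acute mice and KO acute DSS replicates 1 to 3, series 2 the other acute KO mice, series 3 WT chronic DSS and WT chronic control replicates 1 to 3, and series 4 all KO chronic mice and the other WT chronic controls. What a series marks is not stated, and within-series values are given beside the results they touch. In whole colon, fewer cells of a type and less RNA per cell cannot be told apart.

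The first question was how collagen chain expression changed in acute colitis of WT mice. None of the 44 chains was filtered out. Of them, 36 were higher and 1 was lower in WT acute DSS than in WT acute controls, all of which lie in series 1. Over all genes, 19.4% were higher and 21.8% lower. The median difference of the chains was 0.39, against 0.01 for all genes. The sizes varied widely: Col18a1 differed most, at 2.50, 9 of the 37 called differences were at least 2-fold and 18 were under 0.5. The arrays of the 2 groups did not overlap for 31 chains that were higher in DSS and 1 that was lower, where all genes gave 17.7% and 21.4%.

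All 11 fibrillar chains rose in WT acute DSS, with a median of 0.77. Col1a1 encodes the main chain of type I collagen, the most plentiful fibril protein. Its signal was 10.72, 10.62 and 10.74 in the WT acute controls and 13.01, 11.41, 12.73, 12.11 and 12.65 in WT acute DSS. Every DSS array lay above every control array, with replicate 2 lowest. The rise was 1.69 ± 0.25, or 3.23-fold (adjusted p = 5.65e-06). Col1a2, the partner chain of type I, read 10.56, 10.53 and 10.63 in controls and 12.72, 11.11, 12.38, 11.75 and 12.31 in DSS, a rise of 1.48 ± 0.24 (adjusted p = 1.52e-05). Col3a1, which forms type III homotrimers mixed into type I fibrils, read 10.36, 10.25 and 10.41 in controls and 12.16, 10.93, 12.26, 11.28 and 11.81 in DSS, a rise of 1.34 ± 0.24 (adjusted p = 4.35e-05). In both genes the groups were separate and DSS replicate 2 was again the lowest of its group. Among the type V chains, which set fibril diameter, Col5a2 rose by 1.47 ± 0.20, Col5a1 by 0.97 ± 0.13 and Col5a3 by 0.67 ± 0.12. Col27a1, a fibrillar chain best known from cartilage, rose by 0.77 ± 0.09 with all DSS arrays (8.95 to 9.41) above the controls (8.33 to 8.50). The rises of Col2a1, Col24a1, Col11a2 and Col11a1 were smaller, between 0.23 and 0.41.

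**Figure D1:**
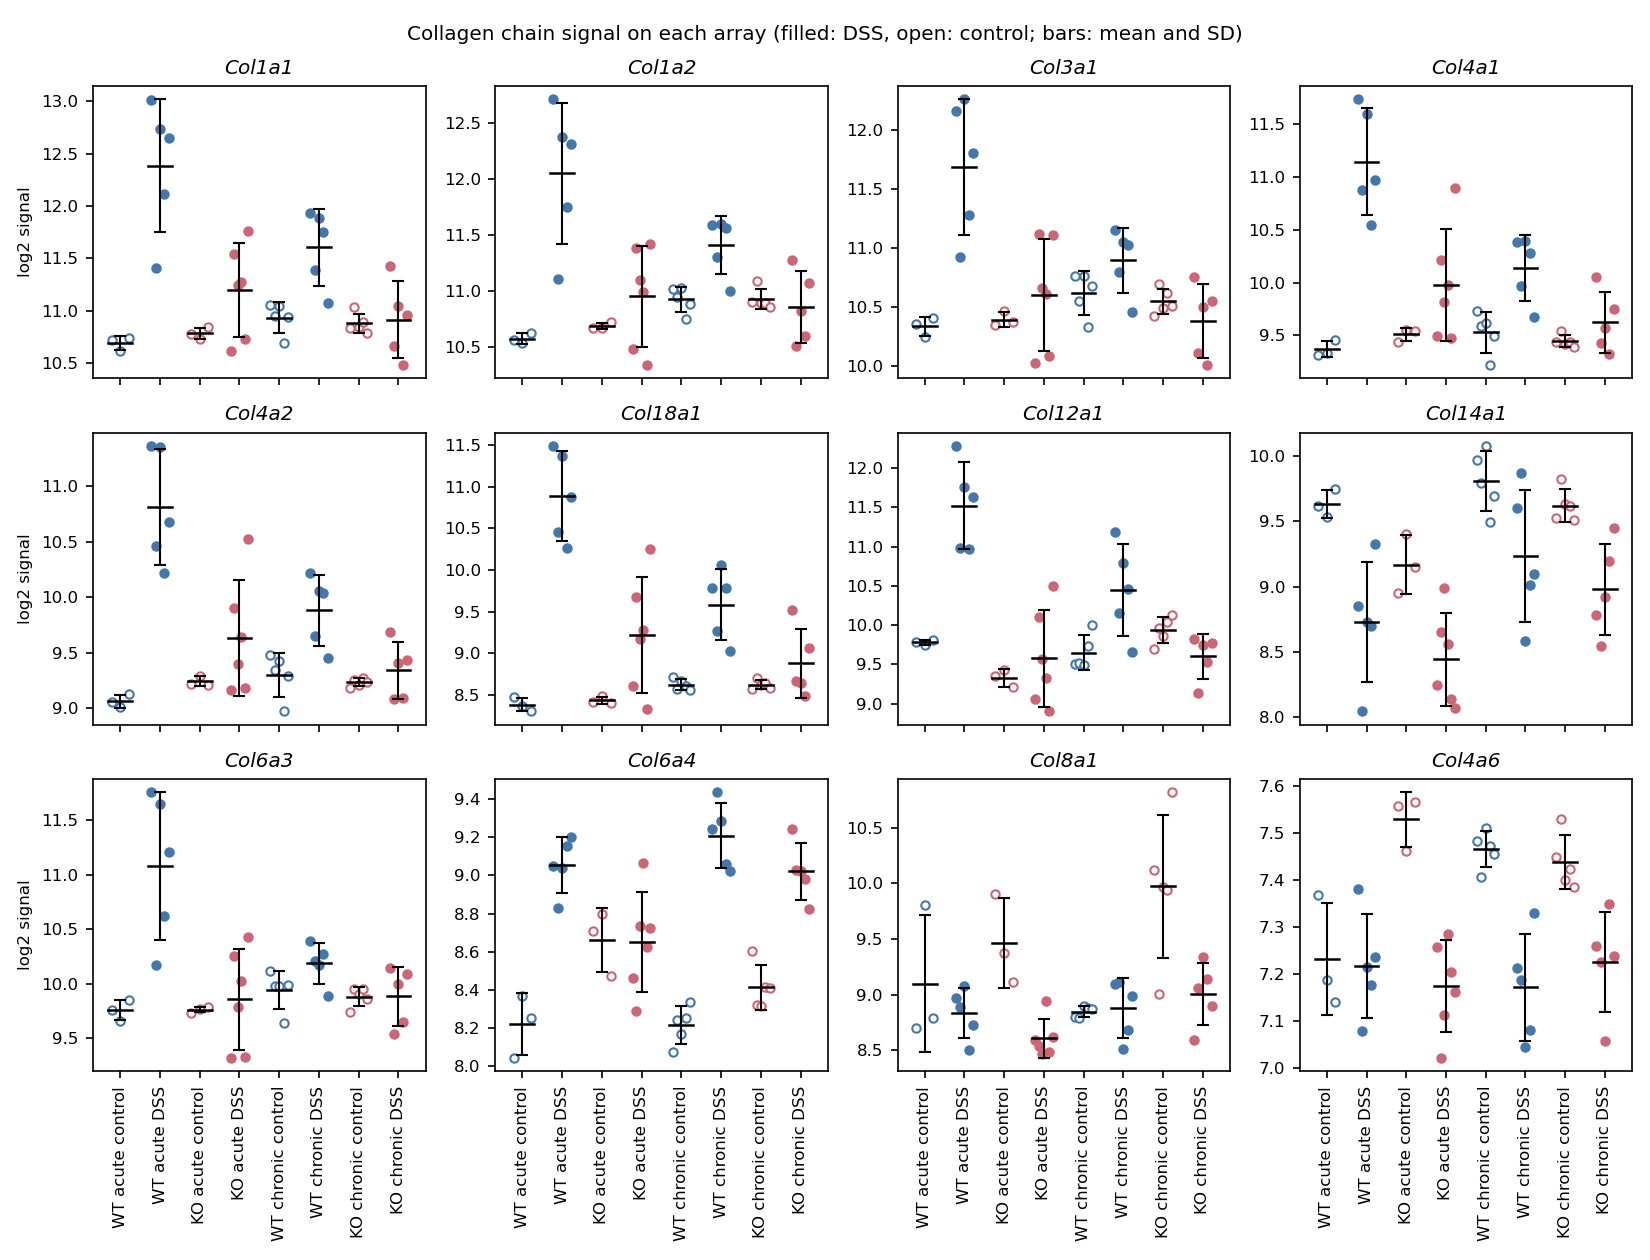
Log2 signal of 12 collagen chains on each of the 37 arrays (y axis) in the 8 groups (x axis); blue marks WT, red KO, filled points DSS and open points controls, and the bars give mean and SD. In WT acute DSS, Col1a1 reached 11.41 to 13.01 while its controls stayed at 10.62 to 10.74; Col14a1 is the chain that was lower, and Col8a1 was highest in KO chronic controls.

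Promoter sequences are shown for Col1a2, Col3a1 and Col18a1, which rose together by more than 2-fold. The RefSeq windows (build GRCm38.p6) held 35 of the 44 chains, and the 250 bases before each annotated start were searched on both strands for the CCAAT box (letters CCAAT), the GC box (letters GGGCGG), the TATA box (letters TATAAA) and the AP-1 site (letters TGANTCA). No matches overlap in the sequences printed. Capitals mark a match to any of them. The Col1a2 window is chr6:4505368-4505617 on the plus strand, the Col3a1 window chr1:45311288-45311537 on the plus strand and the Col18a1 window, the more upstream of its 2 starts, chr10:77166531-77166780 on the minus strand.
Col1a2: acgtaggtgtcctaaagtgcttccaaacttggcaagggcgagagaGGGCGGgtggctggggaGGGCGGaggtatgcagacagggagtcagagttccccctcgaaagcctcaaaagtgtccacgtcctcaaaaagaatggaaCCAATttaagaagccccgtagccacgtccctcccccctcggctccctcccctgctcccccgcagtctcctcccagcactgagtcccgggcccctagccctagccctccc
Col3a1: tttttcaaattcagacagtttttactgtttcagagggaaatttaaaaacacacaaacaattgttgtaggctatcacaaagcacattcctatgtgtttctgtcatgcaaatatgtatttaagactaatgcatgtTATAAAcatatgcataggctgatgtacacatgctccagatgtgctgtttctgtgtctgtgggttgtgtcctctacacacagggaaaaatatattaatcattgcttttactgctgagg
Col18a1: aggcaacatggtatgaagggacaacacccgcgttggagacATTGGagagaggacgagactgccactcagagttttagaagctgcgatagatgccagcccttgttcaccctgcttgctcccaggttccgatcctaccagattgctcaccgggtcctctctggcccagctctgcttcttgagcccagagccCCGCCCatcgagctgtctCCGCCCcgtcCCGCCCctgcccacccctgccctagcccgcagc
Col1a2 held 2 GC boxes and 1 CCAAT box, Col3a1 held 1 TATA box, and Col18a1 held 1 CCAAT box and 3 GC boxes, all on the opposite strand. No 1 of these motifs is in all 3 windows. Of the 9 chains at least 2-fold higher in WT acute DSS, 6 had a window. Among these 6 the CCAAT box was in 4, the GC box in 3, the TATA box in 1 and the AP-1 site in 0. Among the other 29 chains with a window the counts were 9, 18, 4 and 1. The difference was not tested. The GC box occurred in 60.0% of the 35 chains with a window and in 35.4% of all 27025 genes with one. The CCAAT box occurred in 37.1% and 37.5%, the TATA box in 14.3% and 14.3%, and the AP-1 site in 2.86% and 7.82%. A match is a description of these letters only.

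Basement membrane chains split in WT acute DSS, with 5 of 8 higher and 3 not called. Col4a1 and Col4a2 encode the chains of the common type IV network and are transcribed head to head, with annotated starts 21 bases apart. Col4a1 read 9.32, 9.34 and 9.45 in controls and 11.74, 10.88, 11.60, 10.55 and 10.98 in DSS, a rise of 1.78 ± 0.24 or 3.43-fold (adjusted p = 1.22e-06). Col4a2 read 9.05, 9.01 and 9.12 in controls and 11.37, 10.46, 11.35, 10.22 and 10.68 in DSS, a rise of 1.75 ± 0.24 (adjusted p = 1.36e-06). Both genes had no overlap and the same order of DSS arrays, replicates 1 and 3 highest and replicate 4 lowest. The other type IV chains moved less. Col4a3 rose by 0.25 ± 0.07, and Col4a4, Col4a5 and Col4a6 stood at 0.04 ± 0.07, 0.03 ± 0.07 and -0.01 ± 0.07 without passing the test. Col18a1, whose C-terminal fragment is endostatin, read 8.48, 8.37 and 8.32 in controls and 11.49, 10.46, 11.36, 10.27 and 10.88 in DSS. That is a rise of 2.50 ± 0.29, or 5.67-fold (adjusted p = 1.54e-07), with the lowest DSS array well above the highest control. Col15a1, the related multiplexin of vessels and muscle, read 9.09, 9.04 and 9.14 in controls and 10.45, 9.17, 10.33, 9.33 and 9.65 in DSS. It rose by 0.70 ± 0.22 (adjusted p = 0.012), but without DSS replicates 1 and 3, the highest of the group, it stood at 0.29 (adjusted p = 0.259). The median of the class was 0.47 and that of the 6 type IV chains alone 0.15.

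Among the FACIT chains 8 of 9 were higher and Col14a1 was lower. Col12a1, which coats type I fibrils under tension, read 9.79, 9.75 and 9.81 in WT acute controls and 12.28, 10.98, 11.75, 10.97 and 11.63 in DSS, a rise of 1.74 ± 0.29 (adjusted p = 2.71e-05). Col14a1, the other large fibril-surface chain, went the opposite way: 9.61, 9.53 and 9.75 in controls against 8.85, 8.04, 8.73, 8.70 and 9.32 in DSS. It fell by 0.90 ± 0.24 (adjusted p = 0.00303), and no DSS array reached a control. Col20a1 rose by 0.69 ± 0.09, and the other 6 members, Col16a1, Col19a1, Col22a1, Col9a1, Col9a2 and Col9a3, rose by 0.22 to 0.44. Col9a2, among the brightest of the class, read 8.37, 8.20 and 8.09 in controls and 8.33, 8.62, 8.41, 8.51 and 8.44 in DSS, with overlap. Its rise of 0.24 ± 0.09 (adjusted p = 0.0295) was no longer called without WT acute control replicate 2 or 3 or DSS replicate 2 (adjusted p = 0.0845, 0.201 and 0.078).

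Of the 16 other chains 12 rose. The 3 classical type VI chains make the microfilaments around cells, and Col6a1 read 10.57, 10.40 and 10.59 in controls and 11.96, 11.05, 11.69, 10.95 and 11.31 in DSS, a rise of 0.87 ± 0.18. Col6a2 read 10.22, 10.09 and 10.27 in controls and 11.77, 10.71, 11.35, 10.55 and 10.97 in DSS, a rise of 0.88 ± 0.18. Col6a3, the largest chain of the 3, read 9.76, 9.66 and 9.84 in controls and 11.75, 10.17, 11.65, 10.62 and 11.21 in DSS, a rise of 1.33 ± 0.24. All 3 genes were without overlap. Col6a4, a later-described type VI chain, read 8.04, 8.37 and 8.25 in controls and 8.83 to 9.20 in DSS, a rise of 0.83 ± 0.12 (adjusted p = 4.05e-06). Col7a1, the anchoring fibril chain, rose by 0.51 ± 0.07. All 4 transmembrane chains, Col13a1, Col17a1, Col23a1 and Col25a1, rose by 0.21 to 0.44, and Col10a1, Col26a1 and Col28a1 rose by 0.25 to 0.33. Col6a5, Col6a6, Col8a1 and Col8a2 were not called, and Col8a1 stood at -0.27 ± 0.25, with 1 control array at 9.81 and the other two at 8.71 and 8.79.

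**Figure D2:**
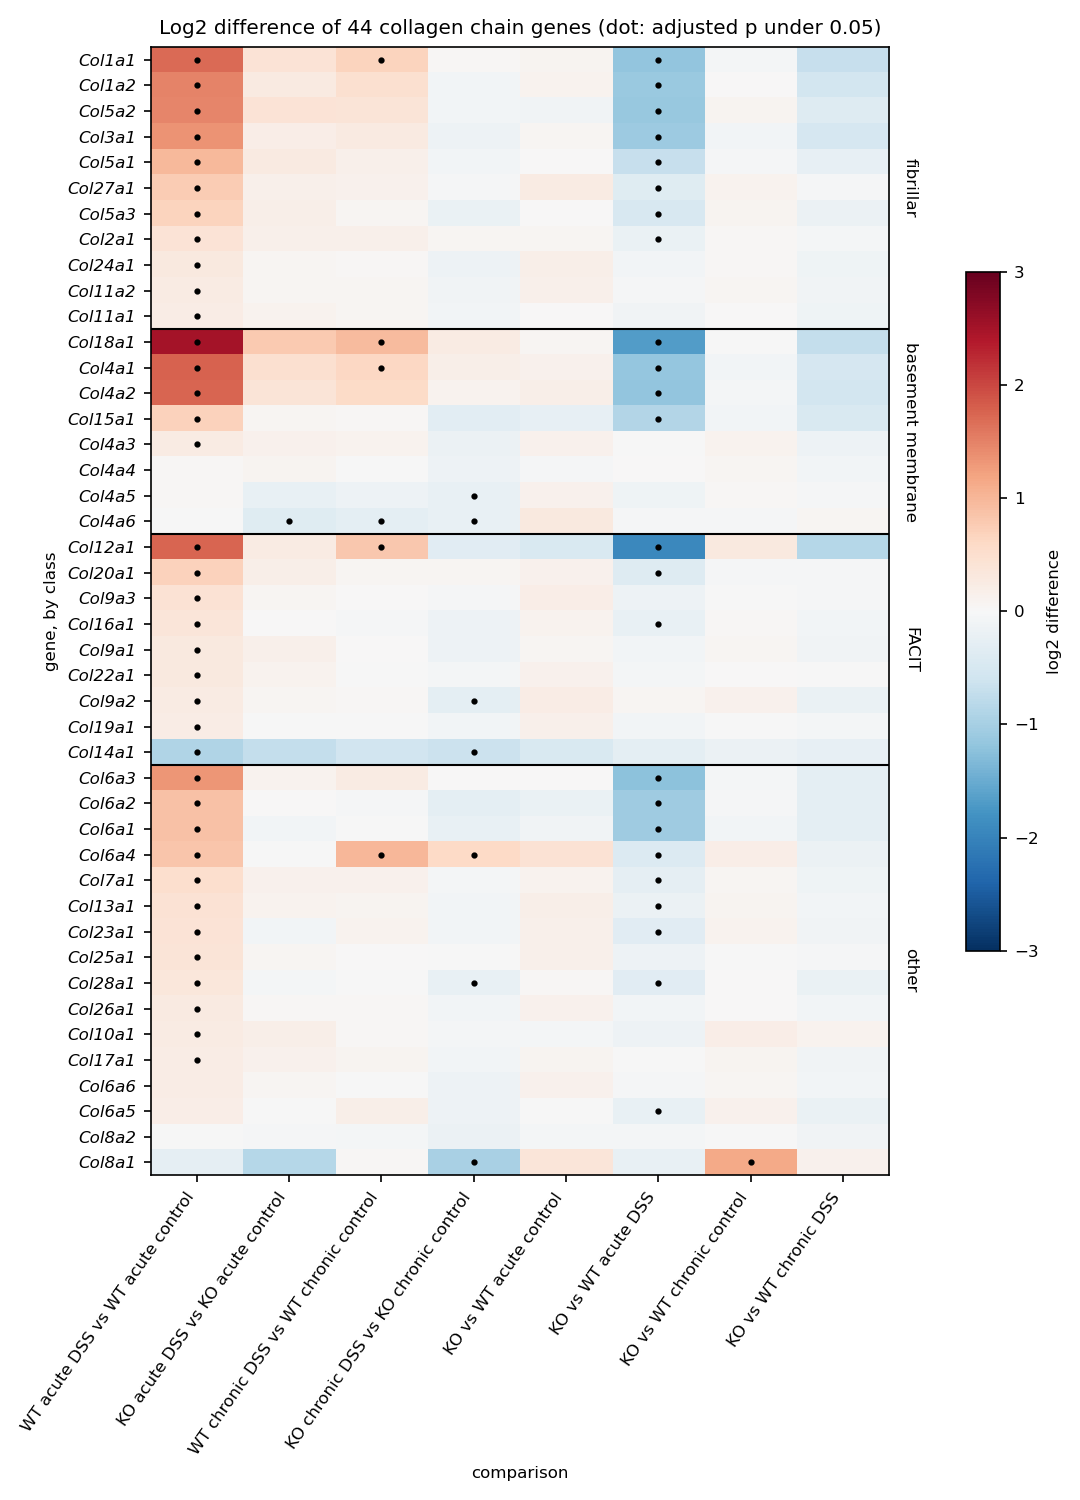
Log2 differences of the 44 chains (rows, by class and by size in WT acute DSS) in 8 comparisons (columns); red is higher and blue lower in the first group, and a dot marks an adjusted p under 0.05. The first column holds 36 red calls and 1 blue one, the column of KO against WT under acute DSS holds 24 blue calls, and the chronic columns hold few.

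Cell type markers moved in the same comparison. Of 8 fibroblast markers 3 were higher and 0 lower, with a mean signal per array of 9.94 to 10.69 in DSS and 9.81 to 10.03 in controls. Endothelial markers were higher for 5 of 8 (9.42 to 10.41 against 9.03 to 9.17), neutrophil markers for 7 of 8 (8.84 to 11.22 against 6.80 to 6.88), and enteric glial and neuronal markers for 3 of 6 measured. Epithelial markers were lower for 5 of 8 (10.85 to 12.38 against 12.35 to 12.41), and 0 of 8 smooth muscle markers were called. Their part in the collagen differences was not tested.

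Chains of brighter probe sets had the larger rises. Genes were ranked by mean signal and divided into quintiles. All 8 chains in the brightest quintile rose, with a median of 1.41, while that quintile as a whole had 13.3% higher and a median of -0.14. In the quintile above the dimmest 9 of 11 chains rose, with a median of 0.25, where the quintile as a whole had 28.5% higher and a median of 0.13. The dimmest quintile held 0 chains. Col18a1, with the largest rise, and Col14a1, which fell, both lay at percentile 69.4. The small rises also depended on the controls. With WT chronic controls in place of WT acute controls, an alternative chosen after seeing the data that also changes the animal series, 20 chains were higher and 3 lower, 21 of them called in the same comparison with acute controls. Over all genes 17.6% were then higher and 23.6% lower, and the median was -0.03, against 0.14 for the chains. Col18a1 then stood at 2.26, Col12a1 at 1.87, Col4a1 at 1.62 and Col1a1 at 1.45, all still called. Col9a2 turned from 0.24 to -0.12 (adjusted p = 0.243), and Col15a1 was no longer called at 0.44.

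Of the chains known from cartilage, 7 were among the small rises, and Col27a1 was not. Col2a1, Col9a1, Col9a2, Col9a3, Col10a1, Col11a1 and Col11a2 were all higher in WT acute DSS, by 0.23 to 0.44. Of 8 other cartilage genes (Acan, Matn1, Matn3, Hapln1, Chad, Epyc, Ucma and Comp), a list chosen after seeing the data, 1 was higher and 1 lower, with a median of 0.02. Against WT chronic controls 2 of the 7 cartilage chains, Col2a1 and Col10a1, were called higher and the median was 0.07. Col27a1, outside this set, had the larger rise given above and was still called higher there, at 0.41.

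**Figure D3:**
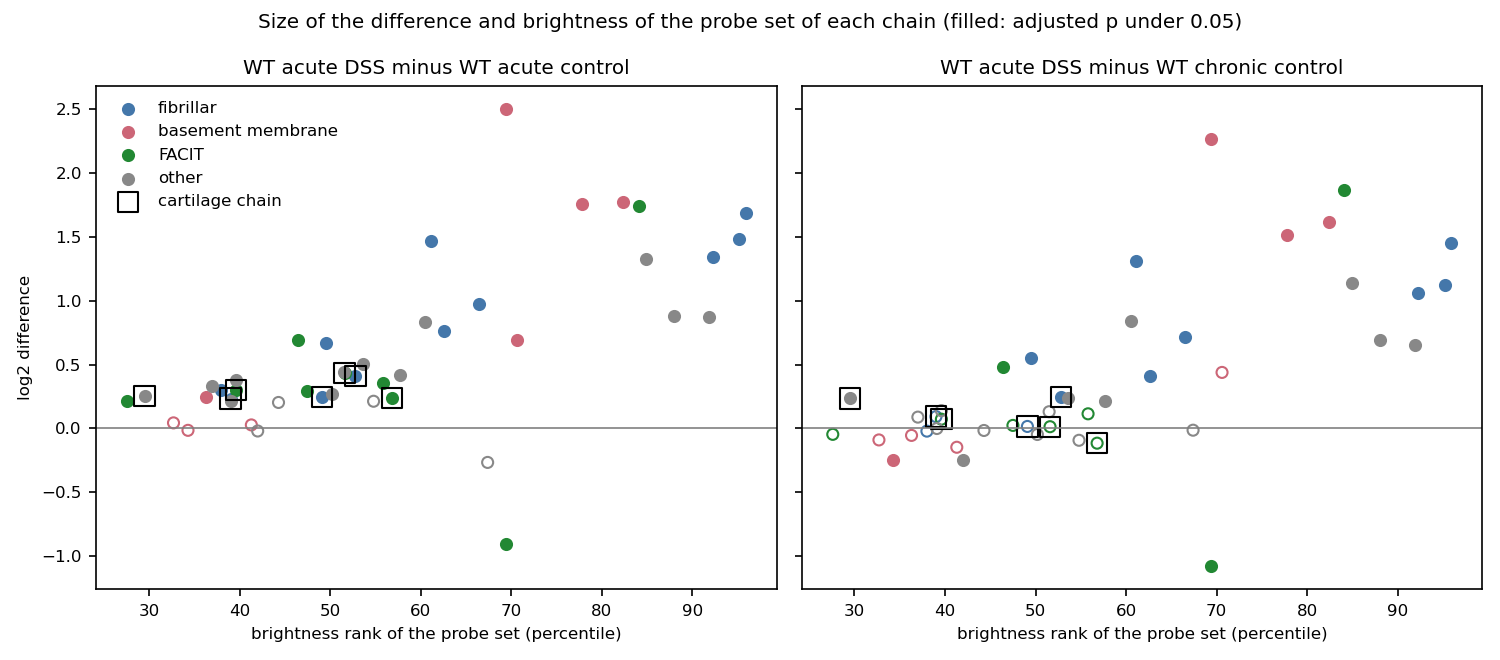
Log2 difference of each chain (y axis) in WT acute DSS against WT acute controls (left) and against WT chronic controls (right), by brightness rank of its probe set among all genes (x axis); filled points passed an adjusted p under 0.05, colours mark the class and squares the 7 cartilage chains. Col18a1, at percentile 69.4, stands highest in both panels (2.50 and 2.26), and 7 cartilage chains are called on the left and 2 on the right.

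In KO mice few chains were called in acute DSS. No chain was called higher in KO acute DSS against KO acute controls by limma and 1, Col4a6, was lower, where 0.266% and 0.853% of all genes were called. At an unadjusted p under 0.05 there were 6 higher and 4 lower. Col18a1 read 8.42, 8.49 and 8.41 in KO acute controls and 8.61, 9.67, 9.18, 9.28, 8.33 and 10.25 in KO acute DSS, a difference of 0.78 ± 0.28 (adjusted p = 0.156). Replicate 6, the highest, lay just under the lowest WT DSS array (10.27), and replicate 5 lay below the controls. Col4a1 read 9.50, 10.22, 9.82, 9.98, 9.48 and 10.89 in KO acute DSS, against 9.44 to 9.55 in controls, a difference of 0.47 ± 0.23 (adjusted p = 0.299). Col1a1 read 10.62, 11.54, 11.24, 11.27, 10.73 and 11.76, against 10.73 to 10.84, a difference of 0.41 ± 0.25 (adjusted p = 0.419). Replicates 2 and 6 were high and replicates 1 and 5 near the controls for all 3 genes. Col14a1 stood at -0.72 ± 0.23 (adjusted p = 0.107), with the groups overlapping only at KO DSS replicate 3 (8.99) and KO control replicate 1 (8.95). Col4a6, the chain called, read 7.56, 7.46 and 7.57 in controls and 7.02 to 7.28 in DSS and fell by 0.36 ± 0.07 (adjusted p = 0.00825). It was not called without KO control replicate 1 or 3 (adjusted p = 0.073 and 0.0573), nor within series 2, which holds all KO controls, at -0.31 (adjusted p = 0.541, n = 3 and 3). Without KO DSS replicate 4 or 5, 2 chains were called in place of 1.

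Set directly against WT mice on acute DSS, KO mice had 24 chains lower and 0 higher, while 15.2% of all genes were lower and 15.8% higher. At an unadjusted p under 0.05, 27 chains were lower and 0 higher. Arrays did not overlap for 10 chains, all lower in KO, where 3.04% of all genes were lower and 2.96% higher without overlap. The lower chains were 8 of 11 fibrillar, 4 of 8 basement membrane, 3 of 9 FACIT and 9 of 16 others, with class medians of -0.49, -0.50, -0.16 and -0.23. Within the basement membrane class the median was -0.09 for the 6 type IV chains and -1.27 for the 2 multiplexins. Col12a1 differed most: 9.06, 10.10, 9.57, 9.33, 8.90 and 10.50 in KO against 10.97 to 12.28 in WT, -1.94 ± 0.24 or 3.85-fold (adjusted p = 1.35e-06). Col18a1 stood at -1.67 ± 0.24 (adjusted p = 7.96e-06) and Col6a3 at -1.22 ± 0.20 (adjusted p = 3.69e-05). Col6a1 read 9.90 to 10.93 in KO against 10.95 to 11.96 in WT, -1.06 ± 0.15, also without overlap. Col1a1 (-1.19 ± 0.21), Col4a1 (-1.17 ± 0.20) and Col4a2 (-1.18 ± 0.20) were lower with overlapping arrays. Within series 1, the single one that holds both groups (n = 3 KO and 5 WT), 15 chains were lower, all among the 24. Calls over all genes, in either direction, fell from 6170 to 3107 there. Col12a1 stood there at -1.94, Col18a1 at -1.74 and Col4a1 at -1.30, all called, whereas Col1a1 at -1.25 (adjusted p = 0.055), Col1a2, Col3a1, Col6a3 and Col15a1 were not. Without WT replicates 1 and 3 there were 19 lower, and without both arrays with Y-linked signal 23, with 2486 and 5674 of all genes called.

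Markers moved with genotype as well: under acute DSS 6 of 8 fibroblast, 8 of 8 endothelial, 6 of 6 glial and neuronal, 6 of 8 neutrophil and 4 of 8 smooth muscle markers were lower in KO, and 3 of 8 epithelial markers were higher. The mean fibroblast marker signal was 8.82 to 9.95 in KO and 9.94 to 10.69 in WT. The mean epithelial signal was 12.10 to 12.56 in KO and 10.85 to 12.38 in WT. Their part in the lower collagen signals was not tested. Between KO and WT acute controls, which lie in different series, 0 of 44 chains were called by limma, where 0.341% of genes were called higher and 0.777% lower. At an unadjusted p under 0.05, 6 chains were higher in KO, and no share of all genes was taken at that threshold. Without WT acute control replicate 1, 1 chain was called.

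The genotype by DSS interaction tests whether the DSS difference itself was smaller in KO. At an adjusted p under 0.05 it was called negative for 22 chains and positive for 0, where 5.75% of genes were called negative and 6.51% positive. By sign alone 42 of the 44 values were negative. The 22 held 7 of 11 fibrillar, 4 of 8 basement membrane, 3 of 9 FACIT and 8 of 16 other chains. Col18a1 had -1.72 ± 0.41 (adjusted p = 0.00743), Col12a1 -1.50 ± 0.41 (adjusted p = 0.0175) and Col4a2 -1.36 ± 0.33 (adjusted p = 0.0087). Col23a1 and Col27a1 had the smallest adjusted p-values, 0.00237 at -0.50 ± 0.10 and 0.00266 at -0.62 ± 0.12. None of the 7 cartilage chains, a set without Col27a1, was called. Col14a1 stood at 0.18 ± 0.33, so its difference was not shown to differ between genotypes. The count depended on the fit: it was 13 with animal series as a covariate, 8 without WT acute DSS replicates 1 and 3 and 4 when the fit used only the 4 acute groups. Over all genes the calls fell from 2444 to 1308, 1159 and 536 in these fits. With only the acute groups Col18a1, Col12a1 and Col4a2 lost the call (adjusted p = 0.0684, 0.0828 and 0.0767). Col12a1 also lost it without WT acute DSS replicates 1 and 3 (adjusted p = 0.0785). Of the markers, the interaction was called negative for 2 of 8 fibroblast, 1 of 8 smooth muscle, 2 of 6 glial and neuronal and 1 of 8 neutrophil genes, and for 0 of 8 endothelial and 0 of 8 epithelial ones. Their part in it was not tested.

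**Figure D4:**
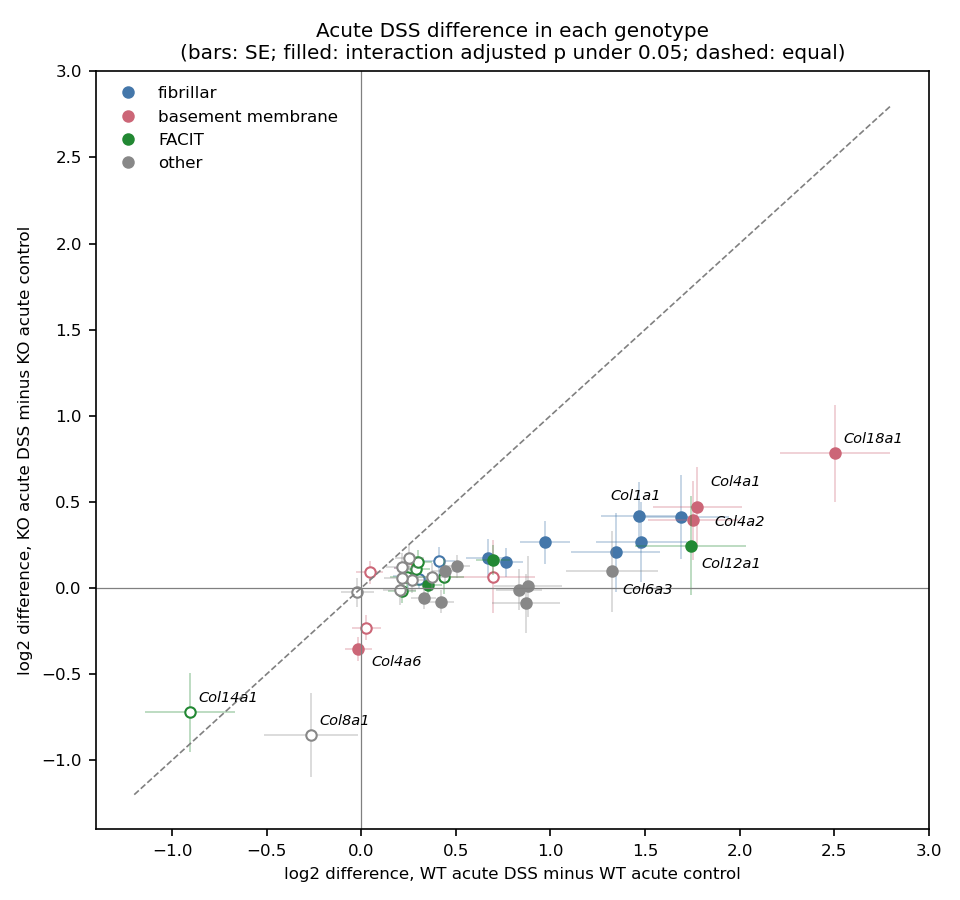
Acute DSS difference of each chain in WT (x axis) and in KO (y axis), in log2 units with SE bars; colours mark the class, filled points have an interaction at an adjusted p under 0.05, and the dashed line marks equal differences. Col18a1 lies at 2.50 in WT and 0.78 in KO, Col12a1 at 1.74 and 0.25, and Col14a1 lies near the line at -0.90 and -0.72.

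In the chronic protocol fewer chains were called. WT chronic DSS had 5 chains higher and 1 lower than WT chronic controls, where 5.79% of genes were higher and 8.58% lower. Col6a4 read 8.08 to 8.34 in controls and 9.24, 9.44, 9.28, 9.06 and 9.02 in DSS, a rise of 0.99 ± 0.11 (adjusted p = 2.58e-07) without overlap. Col18a1 read 8.57 to 8.72 in controls and 9.79, 9.27, 10.07, 9.78 and 9.03 in DSS, a rise of 0.96 ± 0.25 (adjusted p = 0.0091). Both were separate on every array, and Col18a1 replicate 5 was the lowest. Col12a1 read 9.50, 9.51, 9.50, 9.74 and 10.00 in controls and 11.19, 10.15, 10.79, 10.46 and 9.66 in DSS, with overlap at DSS replicate 5. It rose by 0.80 ± 0.26 (adjusted p = 0.0322), Col1a1 by 0.67 ± 0.22 (adjusted p = 0.0358) and Col4a1 by 0.61 ± 0.20 (adjusted p = 0.0411). Col12a1 was no longer called without WT chronic DSS replicate 1, at 0.61 (adjusted p = 0.122), nor without DSS replicate 3 or 4 or control replicate 1, 2 or 3. Leaving out DSS replicate 3 or 4, or control replicate 2 or 3, left 3 chains called in place of 6. Col4a6 fell by 0.29 ± 0.06, from 7.41 to 7.51 in controls to 7.05 to 7.33 in DSS. Within series 3 (n = 5 and 3) Col6a4 at 1.05, Col18a1 at 0.93, Col12a1 at 0.94 and Col4a6 at -0.30 were called, and Col1a1 and Col4a1 were not. Of the markers, 5 of 8 for neutrophils were higher, 0 of 8 for fibroblasts and 0 of 8 for endothelium.

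Against the acute WT effect, the chronic WT effect was called lower for 25 chains and higher for 0, with 7.71% of genes called lower and 9.3% higher. Col18a1 had the largest such gap, -1.54 ± 0.39 (adjusted p = 0.00696), and 8 of 11 fibrillar chains were among the 25. Col6a4 was not among them: its chronic and acute rises were 0.99 ± 0.11 and 0.83 ± 0.12. Without WT acute control replicate 2 the count was 16. Of the markers, 3 of 6 glial and neuronal, 2 of 8 neutrophil and 1 of 8 fibroblast genes were called lower, 2 of 8 epithelial ones higher, and 0 of 8 endothelial and 0 of 8 smooth muscle ones either way. Their part in the collagen difference was not tested.

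KO chronic DSS had 1 chain higher and 6 lower than KO chronic controls, with 2.47% of genes higher and 5.47% lower. The higher chain was again Col6a4, 8.32 to 8.61 in controls and 9.24, 9.03, 9.03, 8.98 and 8.83 in DSS, a rise of 0.61 ± 0.11 (adjusted p = 0.000699) with no overlap. Col6a4 was the only chain called higher in 3 of the 4 DSS comparisons, and in KO acute DSS it stood at -0.01 ± 0.12, between 8.29 and 9.06 against 8.47 to 8.80. The lower chains were Col8a1, Col14a1, Col9a2, Col28a1, Col4a5 and Col4a6. Col9a2 read 8.53 to 8.90 in controls and 8.22 to 8.50 in DSS, without overlap, and fell by 0.28 ± 0.08. Its call was lost without control replicate 1 or DSS replicate 4 (adjusted p = 0.0757 and 0.0807). Col14a1 read 9.51 to 9.83 in controls and 8.55 to 9.45 in DSS, also without overlap, and fell by 0.64 ± 0.21 at an adjusted p of 0.0498. Leaving out any 1 of the 10 arrays except DSS replicate 5 moved that to between 0.0589 and 0.12. The count of 7 fell to 2 without KO chronic control replicate 1, 3 without control replicate 4 and 4 without DSS replicate 3 or 4. Col4a6 fell by 0.21 ± 0.06, so it was lower in 3 of the 4 DSS comparisons and at -0.01 in WT acute DSS. KO and WT chronic DSS differed in 0 chains by limma, with 1.18% of genes called higher and 1.3% lower. Without KO chronic DSS replicate 1, 5 chains were called, and without WT chronic DSS replicate 5, 2 were. The chronic interaction was called by limma for 0 chains, with 0.271% of genes called positive and 0.15% negative. It was called for 3 chains without KO chronic control replicate 2 and for 1 without KO chronic DSS replicate 1. The chronic against the acute KO effect was called by limma for 0, with 0.00502% of genes called in each direction. At an unadjusted p under 0.05 these 3 comparisons gave 17 chains (all lower in KO), 11 (all negative) and 11. No share of all genes was taken at that threshold, nor in the fits that left out 1 array.

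Col8a1 went its own way in chronic controls. It encodes a short network-forming chain of vessel walls. Its signal was 8.80, 8.79, 8.90, 8.88 and 8.87 in WT chronic controls and 10.12, 9.01, 9.97, 9.94 and 10.82 in KO chronic controls. All KO arrays were higher, replicate 2 least, and the spread in KO was much wider. The difference was 1.13 ± 0.22, or 2.18-fold (adjusted p = 0.0236), and Col8a1 was the single chain called between these groups, where 0.0702% of genes were higher and 0.0301% lower. Within series 4, which holds all KO and 2 of the WT controls, it was 1.10 with an adjusted p of 0.48, and the call was also lost in the fit of only these arrays (adjusted p = 0.084). It was lost without KO replicate 5, at 0.91 (adjusted p = 0.13), and without any 1 of WT replicates 1 to 3 or KO replicates 1, 3 or 4. In KO chronic DSS Col8a1 read 8.60 to 9.34 and fell by 0.97 ± 0.22 (adjusted p = 0.0058), with overlap at control replicate 2. In KO acute mice it went from 9.91, 9.37 and 9.11 in controls to 8.47 to 8.95 in DSS, -0.85 ± 0.24, without overlap and without a call (adjusted p = 0.07). The WT acute controls read 8.71, 9.81 and 8.79, so replicate 2 lay in the KO range. KO against WT acute controls was not called for Col8a1. Its partner Col8a2 was called in none of these.

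Controls of the 2 protocols differed too. WT chronic controls had 14 chains higher and 0 lower than WT acute controls, all under 0.5, where 3.5% of genes were higher and 3.52% lower. Col9a3 led with 0.42 ± 0.11, followed by Col9a2 (0.36 ± 0.09) and Col27a1 (0.36 ± 0.09). Col9a3 read 8.19, 7.83 and 7.66 in acute and 8.39, 8.32, 8.18, 8.44 and 8.24 in chronic controls, and acute replicate 1 lay in the chronic range. The calls depended on single arrays: 1 chain was called without WT acute control replicate 3, 3 without replicate 2 and 9 without WT chronic control replicate 1, and Col9a3, Col9a2 and Col27a1 were called in neither of the first 2 cases. KO chronic controls had 3 chains higher than KO acute controls, Col6a5 (0.35 ± 0.09), Col4a3 (0.29 ± 0.07) and Col10a1 (0.27 ± 0.08), where 2.2% of genes were higher and 2.29% lower, and without both arrays with Y-linked signal 0 were. Col6a5 read 7.62, 7.66 and 7.62 in acute and 7.87 to 8.05 in chronic controls. The count was also 0 without KO acute control replicate 1 or 2 or KO chronic control replicate 4, 1 without KO acute control replicate 3 or KO chronic control replicate 1, and 10 without KO chronic control replicate 2. Series and protocol cannot be told apart in these 2 comparisons. Calls over all genes were not counted in the fits that left out 1 array.

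Most pairs of chains listed as partners varied together from mouse to mouse. Pairs of other chains were not examined, so this is not shown to be particular to partners. Col1a1 and Col3a1 were paired as chains of mixed fibrils rather than of 1 triple helix. After group means were subtracted, 11 of 12 partner pairs correlated over the 37 arrays at an adjusted p under 0.05 (100000 permutations within groups, two-sided, adjusted over the 12 pairs). Col4a1 and Col4a2 had r = 0.985 and rho = 0.949 (permutation p = 1e-05 each, the smallest these permutations can give; adjusted 1.71e-05 and 2.4e-05). Col1a1 and Col1a2 had r = 0.968 and rho = 0.95, Col6a1 and Col6a2 r = 0.956 and rho = 0.955, and Col1a1 and Col3a1 r = 0.955 and rho = 0.936, with the same p values. Leaving out the 2 arrays farthest from the median of the first gene left r at 0.977, 0.953, 0.94 and 0.94. The pairs Col5a1 with Col5a2 (r = 0.898) and Col6a1 with Col6a3 (r = 0.893) were also close. Type IV pairs of dimmer probe sets were looser, at r = 0.732 for Col4a5 with Col4a6 and r = 0.643 for Col4a3 with Col4a4. Col5a2 and Col5a3 had r = 0.631 (permutation p = 0.0152, adjusted p = 0.0166), and Col9a1 and Col9a2 r = 0.557 (permutation p = 0.00163). Col8a1 and Col8a2 were the pair that missed, with r = 0.356 and rho = 0.246 (permutation p = 0.0914 and 0.166), and r fell to 0.0872 without the 2 farthest arrays. Col11a1 and Col11a2 had r = 0.742.

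**Figure D5:**
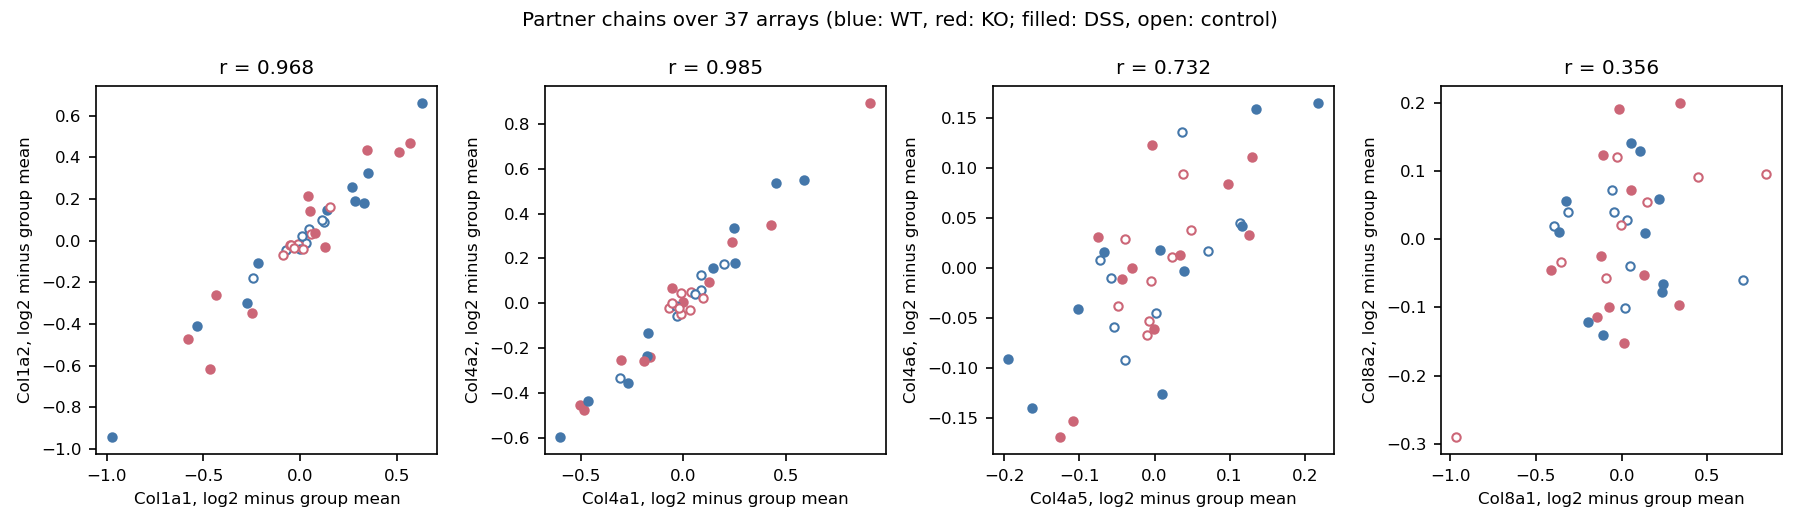
Log2 signal of one chain against its partner after subtraction of the group mean, over 37 arrays and in 4 pairs; blue marks WT, red KO, filled points DSS and open points controls. Col1a1 with Col1a2 and Col4a1 with Col4a2 lie close to a line (r = 0.968 and 0.985), Col4a5 with Col4a6 less so (0.732), and Col8a1 with Col8a2 shows no clear line (0.356).

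The enzymes, receptors and proteases of the collagen pathway were read beside the chains, from a list of 53 genes of which 49 were measured. In WT acute DSS 32 were higher and 1 lower, with a median of 0.76, and in KO acute DSS 0 were called, with a median of 0.09. Of 6 collagenases and gelatinases 5 rose in WT acute DSS: Mmp13, an interstitial collagenase, by 4.12 ± 0.71 and Mmp8, the neutrophil collagenase, by 3.82 ± 0.61. Lox, which cross-links fibrils, rose by 2.91 ± 0.51. Of 26 genes of chain maturation 17 rose and 1 fell, and of 9 receptors 6 rose. Between KO and WT acute DSS 36 of the 49 were lower in KO and 1 higher, among them Mmp8 (-2.35 ± 0.51), Lox (-2.21 ± 0.42) and Mmp13 (-2.08 ± 0.59). The acute interaction was called negative for 13 of the 49 and positive for 0, led by Mmp9 (-1.91 ± 0.53), P3h2 (-1.54 ± 0.36) and Mmp2 (-1.46 ± 0.39). In chronic DSS 8 were higher and 1 lower in WT, with Mmp13 (2.01 ± 0.61), the collagen-binding integrin chain Itga2 (1.39 ± 0.20) and Lox (1.35 ± 0.44) in front, and 1 was higher and 2 lower in KO. KO and WT chronic DSS differed in 2, Mmp9 (-1.28 ± 0.33) and the collagen galactosyltransferase Colgalt1 (-0.34 ± 0.08), both lower in KO. Shares of all genes, higher and lower, were 19.4% and 21.8% in WT acute DSS and 0.266% and 0.853% in KO acute DSS. They were 5.79% and 8.58% in WT chronic DSS and 2.47% and 5.47% in KO chronic DSS. Between KO and WT they were 15.8% and 15.2% under acute DSS and 1.18% and 1.3% under chronic DSS. The acute interaction had 6.51% positive and 5.75% negative. The few calls in KO chronic DSS are not shown to be particular to this list.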

How the data were processed

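Biotin-labelled DNA made from colon RNA of 37 mice was hybridised to Affymetrix Mouse Gene 1.0 ST arrays. The deposited log2 values were made by the authors with RMA, per the submitters' processing notes; the version and probe filter are not given in the sources used here, and the base of the logarithm, not stated, was read as 2 from the range 3.03 to 14.96. Arrays carry no molecule counts, so their number limits the precision.

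Of 35511 transcript clusters, 21789 had 1 gene symbol, and keeping the brightest per gene left 19938. All arrays entered 1 model with 8 group means and 14 contrasts (limma 3.58.1 in R 4.3.3, 29 residual and 3.18 prior degrees of freedom). P-values were two-sided and adjusted by Benjamini-Hochberg over all genes. Shares of all genes called are at an adjusted p under 0.05, and none was taken at an unadjusted p or with 1 array left out. Each title has its own animal number, so arrays were taken as separate animals. Correlations used numpy 2.4.6 and scipy 1.17.1, and the model and the permutations were tested on simulated data.

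The members, lists and tests were chosen with earlier results of these data known. Named chains were the 3 with the highest mean per class and the 3 largest called differences each way per comparison, named pathway genes the 3 largest per comparison; other chains were named after their values were seen, as were the cartilage lists.

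Marker lists for adipocytes, skeletal muscle and anal squamous epithelium gave, in WT acute DSS, 1 of 5 higher, 1 of 4 lower and 1 of 5 lower. Results were recomputed with another variance prior (trended, robust), without dim genes, with all clusters, cyclic loess, array weights, animal series as a covariate or alone, fewer arrays, other controls, and type IV alone.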

Additional observations from a re-analysis of the deposited data

Results flagged for a closer look

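Single arrays lay far from the rest of their group in 5 of 126 groups of named chains examined; chance flags about 1 in 20 groups. They were Col1a2 in KO chronic control replicate 2 (11.09, next 10.90), Col6a5 in WT acute DSS replicate 3 (8.19, next 7.80) and Col8a1 in KO acute DSS replicate 4 (8.95, next 8.62) on the high side, and Col4a3 in KO acute DSS replicate 6 (7.21, next 7.37) and Col9a2 in KO chronic DSS replicate 4 (8.22, next 8.44) on the low side. KO acute DSS replicate 4 is one of the arrays with Y-linked signal.

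Of the 22 chains whose acute DSS difference differed between the genotypes, as the interaction in limma at an adjusted p under 0.05, the 13 covered by the rule for named chains were Col18a1 (-1.72), Col12a1 (-1.50), Col4a2 (-1.36), Col4a1 (-1.31), Col1a1 (-1.28), Col6a3 (-1.23), Col1a2 (-1.22), Col3a1 (-1.14), Col6a1 (-0.96), Col6a2 (-0.87), Col6a4 (-0.84), Col27a1 (-0.62) and Col4a6 (-0.34), in log2 units and all smaller or more negative in KO. In WT mice the chronic DSS difference differed from the acute one for 25 chains, of which the 12 covered by that rule were Col18a1 (-1.54), Col4a2 (-1.17), Col4a1 (-1.17), Col6a3 (-1.08), Col3a1 (-1.07), Col1a1 (-1.02), Col1a2 (-0.99), Col6a2 (-0.92), Col6a1 (-0.88), Col27a1 (-0.64), Col9a3 (-0.42) and Col4a6 (-0.28), all lower in the chronic protocol.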

How the results depend on the processing

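Of the alternatives for named chains, 79 lost the call and 1 reversed, Col9a2 in WT acute DSS at -0.12 with WT chronic controls. The other 1045 were counted as unchanged. They include differences not called in the analysis reported, some of which changed sign, such as Col6a1 in KO acute DSS within series 2. With type IV alone, the basement membrane class median moved in 5 comparisons and was counted as unchanged in 9. Moved here means by at least the SD of the class mean within groups. Counts of called chains moved by over 1.5 times as follows; the cause was not tested. With array weights they were 5 in KO acute DSS (1 in the analysis reported), 12 in WT chronic DSS (6), 15 in KO chronic DSS (7), 8 in KO against WT acute controls (0), 2 in KO against WT chronic controls (1), 11 in KO against WT chronic DSS (0), 8 in the chronic interaction (0), 3 in the KO chronic against acute effect (0), 26 in WT chronic against acute controls (14) and 23 in KO chronic against acute controls (3). Over all genes array weights gave 3247, 4953, 3692, 3041, 1348, 1624, 1832, 1249, 5788 and 4948 in these comparisons, in the same order. The analysis reported gave 223, 2864, 1583, 223, 20, 495, 84, 2, 1400 and 894 there. Cyclic loess gave 3 in KO chronic DSS and 9 in WT chronic against acute controls, with 1360 and 1117 over all genes. Animal series as a covariate gave 0 in KO acute DSS, 0 in KO against WT chronic controls and 13 in the acute interaction (22), and could not be fitted for the comparisons of chronic with acute controls. Over all genes it gave 3, 5 and 1308, against 223, 20 and 2444 in the analysis reported. Fits of only the arrays compared gave 0 in KO acute DSS, 1 in KO against WT acute controls, 0 in KO against WT chronic controls, 4 in the acute interaction and 8 in KO chronic against acute controls. Over all genes these fits gave 0, 964, 6, 536 and 1687. Without dim genes there was 1 in KO against WT acute controls and 1 in KO against WT chronic DSS, and with all clusters 2 in the latter. Over everything tested in these fits the calls were 240, 533 and 1668. Within a single series there were 0 in KO acute DSS, 15 in KO against WT acute DSS (24) and 0 in KO against WT chronic controls. All genes gave 0, 3107 and 4 there, against 223, 6170 and 20 in the analysis reported. Alternatives added after seeing the data gave 23 in WT acute DSS with WT chronic controls (37), 8 in the acute interaction without WT acute DSS replicates 1 and 3, and 0 in KO chronic against acute controls without both arrays with Y-linked signal. All genes gave 8201, 1159 and 120 in these, against 8211, 2444 and 894 in the analysis reported.

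Leaving out 1 array at a time gave 30 to 38 in WT acute DSS, 0 to 2 in KO acute DSS, 3 to 9 in WT chronic DSS, 2 to 7 in KO chronic DSS, 0 to 1 in KO against WT acute controls, 21 to 25 in KO against WT acute DSS, 0 to 1 in KO against WT chronic controls, 0 to 5 in KO against WT chronic DSS, 17 to 24 in the acute interaction, 0 to 3 in the chronic interaction, 16 to 26 in the WT chronic against acute effect, 0 in the KO one, 1 to 17 in WT and 0 to 10 in KO chronic against acute controls. Calls over all genes were not counted with 1 array left out, here or in the sections above. Changes in these counts therefore cannot be set beside a share of all genes. No paired analysis was possible because replicate numbers here follow accession order and each title carries its own animal number. With 3 arrays in the smallest groups, small differences and those of dim probe sets were the least firmly measured.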

Other observations

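Chains of unlike class rose by similar small amounts in WT acute DSS. Col19a1, Col17a1, Col11a1, Col9a2 and Col11a2 stood at 0.22, 0.21, 0.23, 0.24 and 0.25, chosen after their values were seen. In WT chronic against WT acute controls the same 5 stood at 0.26, 0.21, 0.14, 0.36 and 0.23. These comparisons share the 3 WT acute controls.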
